A study of Homo sapiens with 2 samples.

Results

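High-numbered miRNAs, those whose name carries a number of 1000 or higher directly after hsa-miR-, were described in small RNA captured from BT549 cells, an established human breast cancer line. Of 407 miRNAs in the count table, 56 met this rule, all arms included, and the other named miRNAs were 301 lower-numbered ones; 50 numbered predictions without a miRNA name were left out of the members. The cells overexpressed SNHG15, a long non-coding RNA, tagged with MS2 hairpins, phage RNA loops bound by the MS2 coat protein (MCP). The genotype labelled SNHG15-MS2 overexpression was shared by both groups. The pulldown library came from lysate incubated with amylose resin that carried MCP fused to maltose binding protein (MBP-MCP), and the control library from lysate incubated with amylose resin alone. There was 1 library per group, so no difference below has a replicate check, and the labels do not say if each lysate had its own culture. The groups also differed in the MBP-MCP protein itself, so RNA held by that protein and RNA held through SNHG15 cannot be told apart.

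MicroRNAs are short RNAs that guide Argonaute proteins to messenger RNAs, mostly through the seed, bases 2 to 8 from their 5′ end. Most are cut from a hairpin in the nucleus by Drosha with its partner DGCR8 and then by Dicer, and either arm of the hairpin, 5p or 3p, can be loaded. Numbers are given in order of registration, so high numbers mark entries added after deep sequencing became common. Among them are conserved miRNAs of low abundance, mirtrons, whose hairpin is a spliced intron that does not need Drosha, and entries that match fragments of other RNAs.

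Counted reads came to 202560 in the pulldown and 111414 in the control, 1.82 times fewer, so 1 read stood for 4.94 reads in 1000000 library reads (RPM) in the pulldown and 8.98 RPM in the control. Markers of mesenchymal or basal breast cancer lines, such as miR-221 and miR-100, were present for 7 of 7 listed miRNAs, at 74580 RPM summed in the pulldown and 82970 in the control. Of 6 epithelial markers only miR-200a-3p had reads, 1 in each library. Haematopoietic markers summed to 14 and 12 reads, without miR-451a. In the pulldown and the control miR-122-5p, a liver miRNA, had 4 and 0 reads and miR-1-3p, a muscle miRNA, 9 and 1. Their part in the results on high-numbered miRNAs was not tested.

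Sequences are shown, with the seed in capitals, for 4 of the 5 members that reached 20 reads in a library, because the results rest mainly on them, and for miR-3613-5p, for its base composition. Mature sequences of 50 of the 56 members were matched by name in RefSeq (GRCh38.p14), and those 50 had 50 different seeds.
miR-1307-3p: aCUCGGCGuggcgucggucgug
miR-1307-5p: uCGACCGGaccucgaccggcu
miR-1269a: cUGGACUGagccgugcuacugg
miR-1306-5p: cCACCUCCccugcaaacgucca
miR-3613-5p: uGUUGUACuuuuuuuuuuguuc
The first 4 have 63.6% to 72.7% G and C, whereas miR-3613-5p, with its run of U, has 22.7%. Across members the median GC content was 57.1%, against 47.6% over 271 lower-numbered miRNAs with a sequence, and 20 of 50 (40%) exceeded 60%, against 33 of 271 (12.2%). The median length was 22 bases in both classes.

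The members were a minor part of both libraries. They took 399 reads in the pulldown, 0.197% of the library (exact Clopper-Pearson 95% interval 0.178 to 0.217%), and 213 in the control, 0.191% (0.166 to 0.219%). With total reads the shares did not differ beyond counting error, with a ratio of 1.03 (0.870 to 1.22). Scaled by DESeq2 size factors the summed reads gave 1.25 (1.05 to 1.48), an interval above 1. Those factors raise every ratio, and the median log2 ratio of all miRNAs with 20 reads rose by 0.28. Relative to all reads the members stay at 1.03 under any scaling. Intervals here and below cover counting error only. miR-1307-3p alone made up 32.6% of the members' reads in the pulldown and 23.9% in the control, and the 5 most abundant members 62.9% and 57.3%. Without miR-1307-3p the ratio of the shares was 0.913. The 18 members numbered from 1000 up to 2000 held 78.9% of the members' pulldown reads and 70.4% of their control reads.

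Depth limited what could be compared. A minimum of 20 reads in a library was met by 5 members (8.93%), against 128 of the 301 lower-numbered miRNAs (42.5%), and the median member had 2 reads in each library, against 13 and 9. In all, 39 members stayed under 5 reads in each library. The lowest sum over both libraries in the table was 2 reads, and 24 members stood at that sum.

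**Figure D1:**
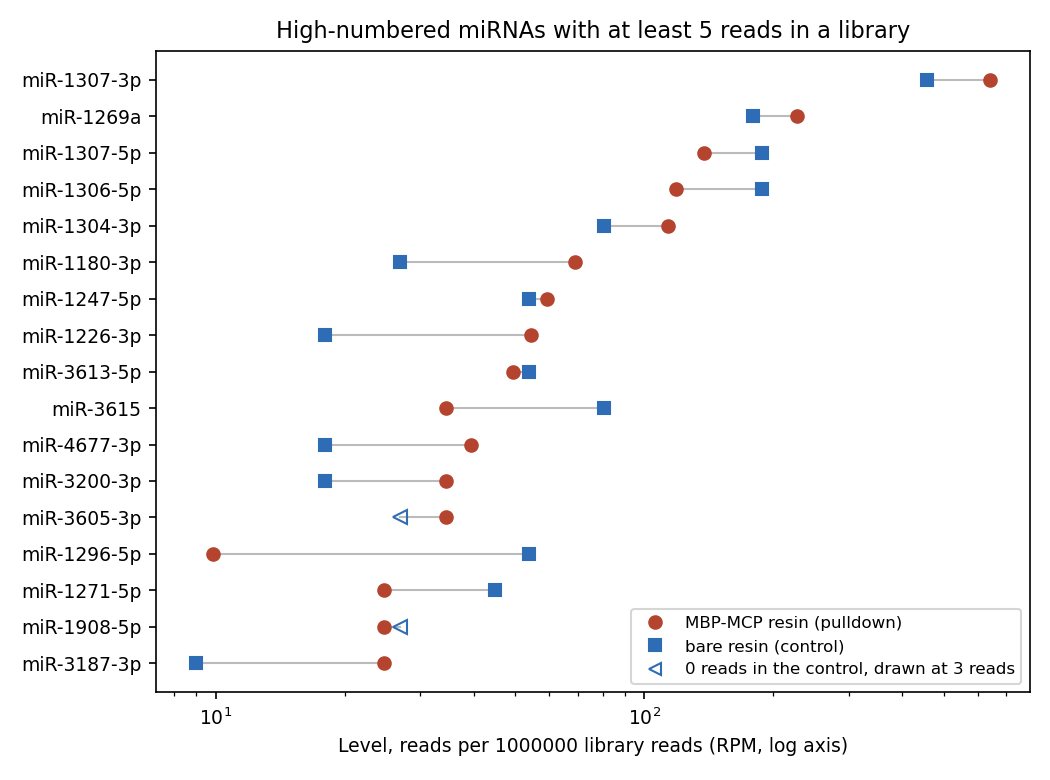
Level of each high-numbered miRNA that reached 5 reads in a library, in reads per 1000000 library reads (RPM, log axis); circles are the pulldown library, squares the control library and open triangles mark 0 control reads drawn at 3 reads. miR-1307-3p stands above all others in both libraries, at 642 and 458 RPM.

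miR-1307-3p was the most abundant member in both libraries, at 130 reads (642 RPM) in the pulldown and 51 reads (458 RPM) in the control, ranks 63 and 78 of 407. Its hairpin MIR1307 spans chromosome 10, bases 103394253 to 103394401 (GRCh38, minus strand), in a 5′ UTR exon or an intron of ATP5MD, a gene for a small subunit of ATP synthase, depending on the transcript. The ratio of pulldown to control RPM was 1.40 (1.01 to 1.98), with a log2 ratio of 0.48. It was the 1 member among the 5 with 20 reads whose interval lay above 1; over all 161 miRNAs at that depth 11.2% did so. No member's interval lay below 1, where 23.6% of all did.

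miR-1269a, which has been tied to TGF-β signalling in colorectal cancer, had 46 reads (227 RPM) in the pulldown and 20 (180 RPM) in the control. Its ratio was 1.27 (0.734 to 2.26), so the libraries did not differ beyond counting error. MIR1269A spans chromosome 4, bases 66276824 to 66276928 (plus strand), with no GENCODE 29 gene on that strand. miR-1304-3p had 23 reads (114 RPM) against 9 (80.8 RPM), a ratio of 1.41 (0.627 to 3.45). MIR1304 spans chromosome 11, bases 93733674 to 93733764 (minus strand), in an intron or a noncoding exon of TAF1D, a factor of RNA polymerase I transcription.

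The other two members with 20 reads lay on the lower side in the pulldown. miR-1306-5p had 24 reads (118 RPM) in the pulldown and 21 (188 RPM) in the control, a ratio of 0.629 (0.335 to 1.19). Its hairpin sits inside the message of DGCR8, the partner of Drosha, which is itself known to be cut by Drosha: MIR1306 spans chromosome 22, bases 20086058 to 20086142 (plus strand), in a coding or noncoding exon. miR-1307-5p had 28 reads (138 RPM) and 21 (188 RPM), a ratio of 0.733 (0.402 to 1.36). Both intervals included 1.

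By a rule of size, at least 2-fold with 20 reads in a library, 0 of 5 members were higher and 0 lower in the pulldown, where 2.48% of all 161 miRNAs were higher and 3.11% lower. The median log2 ratio of the 5 was 0.33, with 3 above 0 and 2 below, against −0.16 over all 161 miRNAs and −0.06 over the 128 lower-numbered ones. TMM factors raised the median of all 161 by 0.19 and DESeq2 size factors by 0.28, and that of the members became 0.53 and 0.61. The signs of these 5 log2 ratios held under every scaling tried, and the distance of the members' median from that of all miRNAs, 0.49 with total reads, rests on 5 values.

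**Figure D2:**
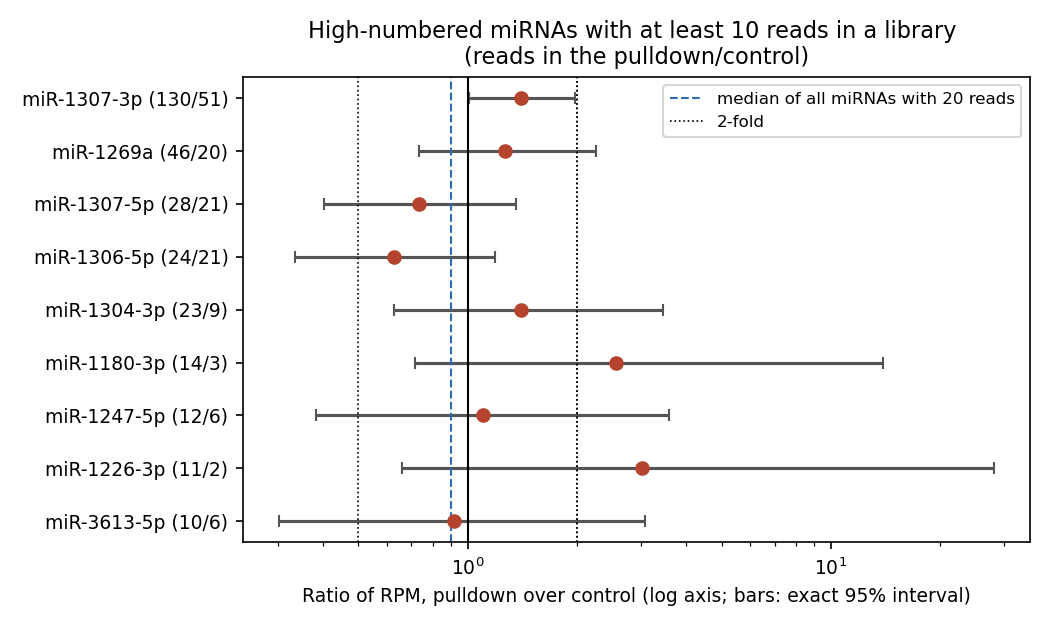
Ratio of pulldown to control RPM (log axis) for the 9 high-numbered miRNAs that reached 10 reads in a library; bars are exact 95% intervals, the solid line marks equality, dotted lines 2-fold and the dashed line the median of all miRNAs with 20 reads. The interval of miR-1307-3p, 1.01 to 1.98, lies just above 1 and the other 8 include it.

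Members with 10 to 19 reads numbered 4. miR-1180-3p, from an intron of the ciliary gene B9D1, had 14 against 3 reads (69.1 and 26.9 RPM), a ratio of 2.57 (0.716 to 13.9). miR-1226-3p, a mirtron product reported to repress the mucin MUC1, had 11 against 2 reads (54.3 and 18.0 RPM), a ratio of 3.03 (0.660 to 28.1). These were past 2-fold, but too few reads were counted for either interval to leave 1. miR-1247-5p, from the DIO3OS transcript of the imprinted DLK1-DIO3 domain, had 12 against 6 reads (ratio 1.10, 0.382 to 3.57). miR-3613-5p, from an intron of DLEU2, the transcript that also carries miR-15a and miR-16-1, had 10 against 6 (ratio 0.917, 0.302 to 3.07); its log2 ratio of −0.12 turned to 0.066 under TMM scaling and 0.14 under DESeq2 scaling.

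The 8 members with 5 to 9 reads spread to both sides. miR-4677-3p had 8 against 2 reads (ratio 2.20), miR-3200-3p 7 against 2 (ratio 1.93) and miR-3187-3p 5 against 1 (ratio 2.75). On the lower side miR-3615, from the 5′ UTR exon of SLC9A3R1, had 7 against 9 reads (ratio 0.428, 0.135 to 1.29), and miR-1296-5p, from an intron of the histone demethylase gene JMJD1C, 2 against 6 (ratio 0.183, 0.0181 to 1.03). miR-1271-5p had 5 reads in each library (ratio 0.550, 0.127 to 2.39). All these intervals included 1, so none of the differences was detectable at this depth.

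miR-3605-3p and miR-1908-5p, the last 2 of the 8, had reads in the pulldown library alone. miR-3605-3p, from the Polycomb gene PHC2, had 7 reads (34.6 RPM) against 0. With 3 reads (26.9 RPM) taken as the limit that a control count of 0 allows, the pulldown level stood at 1.28 times that limit. The exact interval of the ratio, which also covers the error of the 7 reads, began at 0.793 and included 1. No minimum rise is thus shown. miR-1908-5p, from the desaturase gene FADS1, had 5 reads (24.7 RPM) against 0, which is under that limit, so no fold is given. In the authors' deposited table miR-3605-3p is the 1 member called higher (p = 0.0336, adjusted p = 0.441), where 3.93% of all miRNAs are called higher, and 0 members are called lower, where 2.46% of all are. miR-1307-3p is not called in the authors' deposited table, where its p is 0.0360, its adjusted p 0.450 and its log2 fold change 0.49. By adjusted p under 0.05, the authors' deposited table holds 0 members and 2.7% of all miRNAs. Those p-values come from 1 library per group and compare the libraries, not the conditions.

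**Figure D3:**
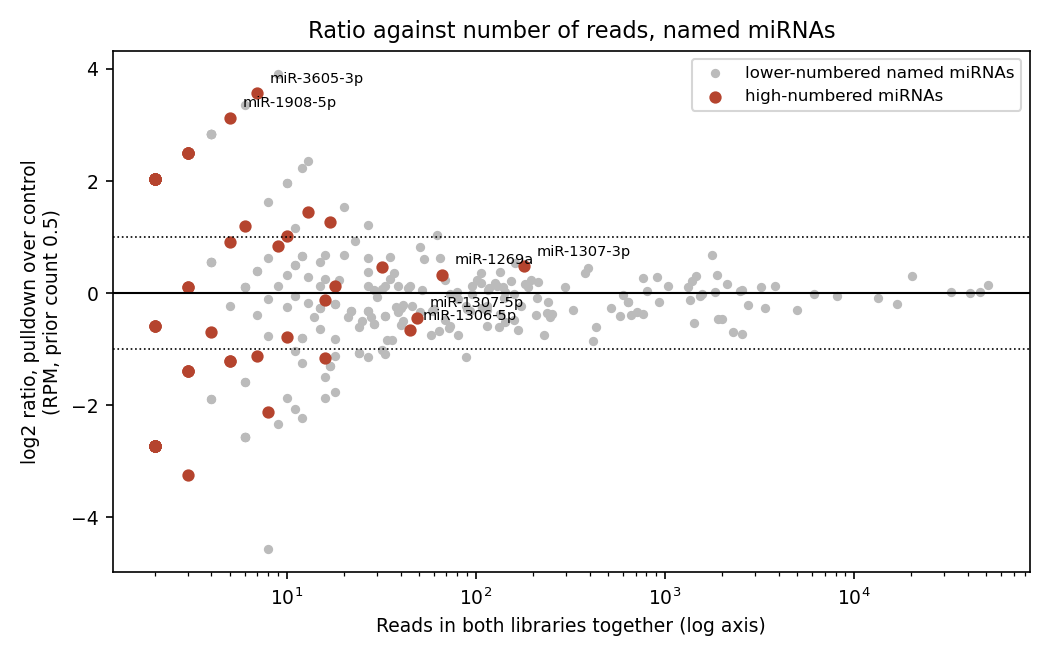
log2 ratio of RPM, pulldown over control, with a prior count of 0.5, against the reads of both libraries together (log axis) for named miRNAs; red points are high-numbered and grey points lower-numbered miRNAs, and dotted lines mark 2-fold. High-numbered miRNAs past 2-fold all lie at few reads, and miR-1307-3p is the rightmost red point.

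Reads in a single library were common among the members. Of 56 members, 28 (50%) had reads in both libraries, 16 (28.6%) in the pulldown alone and 12 (21.4%) in the control alone. Among lower-numbered miRNAs 84.4% had reads in both, 10.6% in the pulldown alone and 4.98% in the control alone. Over all 407 miRNAs these shares were 78.4%, 14.3% and 7.37%. Among those under 20 reads in each library the shares with reads in both were 45.1% of 51 members and 72.8% of 173 lower-numbered miRNAs. Under the same limit the share was 50% of 22 predicted miRNAs and 65.0% of all 246. The groups differ in depth below that limit. All predicted miRNAs had at least 10 reads in a library, whereas 39 members stayed under 5. These shares thus do not show if a low share is particular to the members. Apart from miR-3605-3p and miR-1908-5p, the members seen in the pulldown alone had 2 or 3 reads each, among them miR-1301-3p from DNMT3A, miR-4440 from HDAC4, miR-4766-3p and miR-7641, at 3 reads each. The members seen in the control alone had 2 or 3 reads each, with miR-6840-3p at 3. With 2 reads against 0 the interval of the ratio began at 0.103, and with 0 against 2 it reached 2.93, so presence in 1 library does not show a difference at this depth. The pulldown library was also the deeper one; the part of depth in these counts was not tested.

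**Figure D4:**
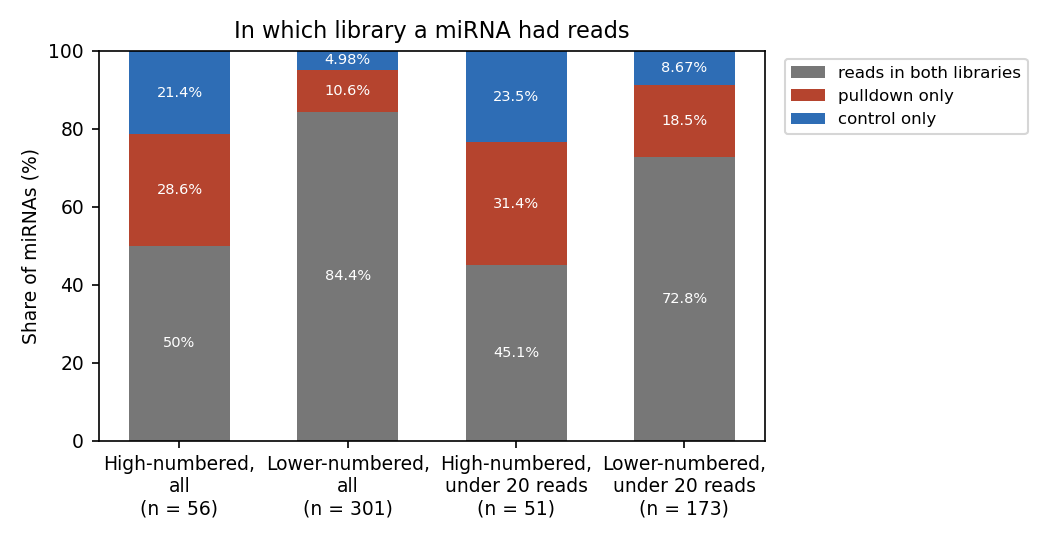
Share of miRNAs (%) with reads in both libraries (grey), in the pulldown alone (red) or in the control alone (blue), for high-numbered and lower-numbered named miRNAs, over all and over those under 20 reads in each library. Reads in both libraries were found for 50% of high-numbered and 84.4% of lower-numbered miRNAs.

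Both arms were counted for 2 of the members' hairpins, miR-1307 and miR-2116. The arms of miR-1307 went to different sides: the 3p arm had 4.64 reads for each 5p read in the pulldown and 2.43 in the control. The ratio of these arm ratios, which does not depend on how libraries are scaled, was 1.91 (0.938 to 3.84). The arm ratio thus did not differ between the libraries beyond counting error. Over 19 hairpins of the table with 20 reads from each arm in a library, 2 (10.5%) had an interval that excluded 1, miR-378a above it and miR-27a below. miR-2116-5p and miR-2116-3p, from an intron of MYO1E, had 2 reads each in the control and 0 in the pulldown.

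**Figure D5:**
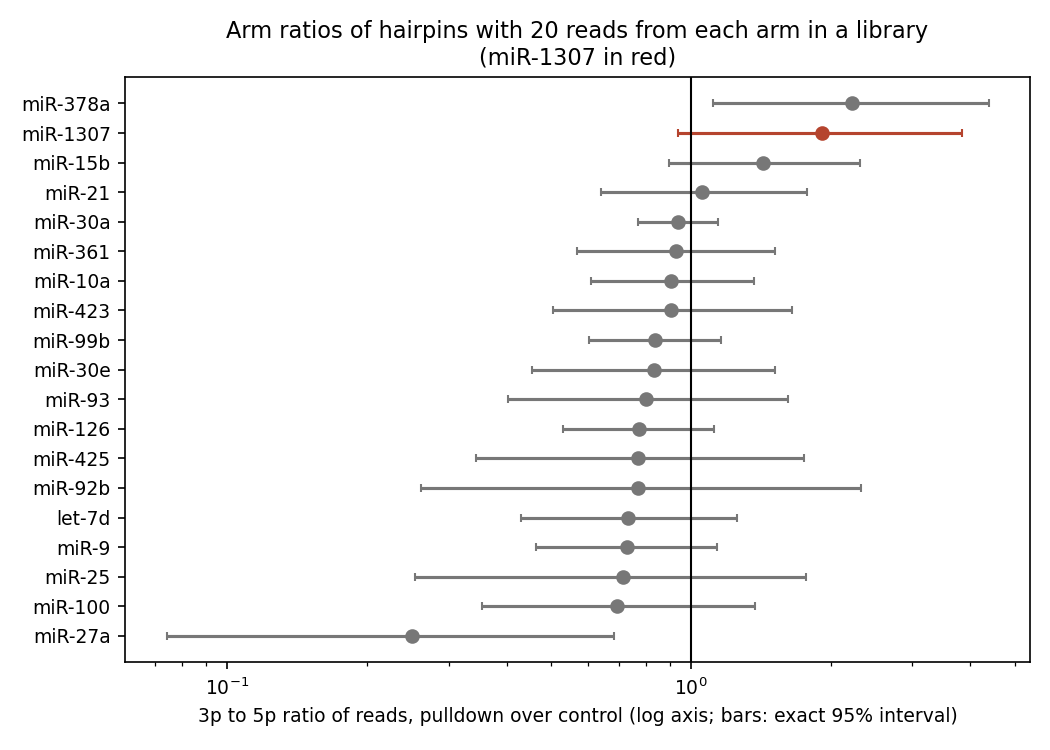
Ratio of 3p to 5p reads in the pulldown divided by that in the control (log axis) for the 19 hairpins reaching 20 reads from each arm in a library; bars are exact 95% intervals and miR-1307 is in red. miR-1307, at 1.91, stands second from the top, and its interval of 0.938 to 3.84 includes 1.

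Summed by arm, the 25 members named 3p had 226 reads in the pulldown and 95 in the control, a ratio of 1.31 (1.03 to 1.68), and the 17 named 5p had 98 and 75, a ratio of 0.719 (0.527 to 0.984). With TMM factors the 5p interval, 0.603 to 1.13, included 1, and the 3p interval, 1.17 to 1.92, stayed above it. Without miR-1307-3p the 3p sum was 96 against 44 reads, a ratio of 1.20 (0.832 to 1.76). Without miR-1307-5p the 5p sum was 70 against 54, a ratio of 0.713 (0.493 to 1.04). Neither interval then excluded 1 with total reads, and other scalings were not run for these reduced sums. The 3p to 5p ratio of the members' reads was 2.31 in the pulldown and 1.27 in the control, 1.82 times apart (1.22 to 2.72) under any scaling. Without both arms of miR-1307 the latter was 1.68 (0.987 to 2.87), so its interval then included 1. In lower-numbered miRNAs, which are mostly read from the 5p arm, the same quantity was 0.869 (0.849 to 0.890). Sums over miRNAs are led by the most abundant, and the members of a sum are not replicates. Another 14 members carry no arm in their name and had 75 and 43 reads.

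A group of members shares the place where the mature sequence ends. Of the 23 3p members with a sequence, 7 end in AG, and in all 7 the base after the 3′ end is the first base of an annotated exon on the same strand in GENCODE 29, so the miRNA ends where the intron ends, at the AG of the splice acceptor. Among 127 lower-numbered 3p miRNAs with a sequence, 5 end in AG and 0 end at an exon start. The last bases are in capitals below, for 6 of the 7.
miR-1226-3p: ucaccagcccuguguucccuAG
miR-3605-3p: ccuccguguuaccuguccucuAG
miR-6513-3p: ucaagugucaucugucccuAG
miR-6736-3p: ucagcuccucucuacccacAG
miR-6748-3p: uccugucccugucuccuacAG
miR-6866-3p: gaucccuuuaucuguccucuAG
MIR1226 (chromosome 3, bases 47849555 to 47849629, plus strand) fills an intron of DHX30 of 75 bases from end to end, as a classical mirtron does. The hairpins of miR-6866-3p, miR-6736-3p and miR-6748-3p end with introns of CASC3, PIAS3 and TMEM179B that are 90, 184 and 206 bases long and begin inside them. Hairpins of this kind are known as tailed mirtrons.

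These 7 miRNAs did not move to one side. miR-1226-3p had 11 against 2 reads, miR-3605-3p 7 against 0 and miR-6741-3p 2 against 0, while miR-6736-3p, miR-6748-3p and miR-6866-3p each had 0 against 2 and miR-6513-3p had 2 in each library. Their sum was 22 against 10 reads, a ratio of 1.21 (0.550 to 2.86). Of 12 mirtron numbers listed, only miR-1226-3p was in the table. Of a list of 181 later numbers, many of which were annotated in a search for mirtrons, 7 were in the table, with 4 against 11 reads in all and a ratio of 0.200 (0.0464 to 0.675). Of these, 5 had reads in the control alone and 2 in the pulldown alone, at 2 or 3 reads each. The lowest sum in the table was 2 reads, so each entry was in it through 1 library only. The interval takes the reads as independent and therefore does not show a difference of the list. Without miR-6840-3p, at 0 against 3 reads, the interval reached 1.03, and no single entry had an interval that excluded 1.

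Members that match other known RNAs were few. Of 22 listed numbers that are known to match fragments of other RNAs or repeats, 3 were in the table. These were miR-1260b, a transfer RNA match, with 2 against 3 reads, miR-6087 with 2 against 3 and miR-7641 with 3 against 0. Of 5 listed numbers that come from small nucleolar RNAs, 0 were in the table. Of 23 numbers listed as conserved outside primates, 10 were in the table as 11 mature miRNAs, with 212 against 113 reads (ratio 1.03, 0.817 to 1.31); 5 had log2 ratios above 0 and 6 below. That sum was 0.727 (0.517 to 1.03) without miR-1307-3p. miR-1197, of the DLK1-DIO3 domain, had 4 against 1 reads. miR-3065-5p, made from the strand opposite the miR-338 hairpin, had 1 read in each library, and it was the 1 member from 4 such listed numbers.

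Seeds linked 2 members to more abundant or better known miRNAs of the table, shown with the seed in capitals.
miR-1271-5p: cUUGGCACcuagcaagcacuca
miR-96-5p: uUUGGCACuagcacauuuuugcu
miR-3129-5p: gCAGUAGUguagagauugguuu
miR-199a-3p: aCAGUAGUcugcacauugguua
miR-96-5p, of the miR-183 cluster, had 18 reads in each library and miR-1271-5p, from an intron of ARL10, had 5 in each, so both had a ratio of 0.550, with intervals of 0.270 to 1.12 and 0.127 to 2.39 that include 1. miR-3129-5p, from an intron of the collagen gene COL5A2, had 1 against 2 reads, and miR-199a-3p 1 in each library. The identical mature miR-199b-3p is listed with 3 against 1, so reads of these copies cannot be assigned with certainty.

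By position, 53 of the members' 54 hairpins were placed in GENCODE 29. Of the members, 27 lay in introns alone, with 86 against 46 reads (ratio 1.03, 0.711 to 1.50). Another 19 overlapped an exon of at least 1 transcript, with 248 against 131 reads (ratio 1.04, 0.839 to 1.30), and 9 had no gene on their strand, with 62 against 36 reads (ratio 0.947, 0.618 to 1.47). The intervals of all 3 classes included 1 with total reads and with TMM factors. With DESeq2 size factors that of the exonic members, 1.26 (1.02 to 1.57), lay above 1. Those factors raise every ratio, and the median log2 ratio of all miRNAs with 20 reads rose by 0.28, to 0.12. The shift thus does not show where the exonic members stand beside other miRNAs. Relative to all reads they stay at 1.04 (0.839 to 1.30) under any scaling. Exonic members, led by miR-1307-3p, held 62.2% of the members' pulldown reads and 61.5% of their control reads.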

How the data were processed

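Small RNA eluted from MBP-MCP amylose resin or bare amylose resin was sequenced from QIAseq miRNA libraries, per the labels' protocols, with 1 library per group. The authors deposited raw read counts per miRNA. Per the submitters' processing notes the build was GRCh38. Aligner, miRNA release and use of molecular identifiers: not given in the sources used here. Deposited RPM values (headed Tpm) differ by at most 0.0484% from reads per 1000000 computed from the counts and were not used further. The log2 fold changes and p-values quoted as such are those of the authors' deposited table. There were 0 columns of other samples.

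RPM ratios were computed from the counts with total reads, exact conditional binomial (Clopper-Pearson) 95% intervals and, for log2 ratios, a prior count of 0.5 in proportion to library size (Python 3.11.15, scipy 1.17.1). The rule of size was 2-fold with 20 reads in a library; a count of 0 was bounded at 3 reads. With 1 library per group no p-value was computed. TMM factors came from edgeR 4.0.16 and size factors from DESeq2 1.42.0, as alternatives. Ratios of arm ratios carry exact conditional odds ratio intervals. Mature sequences came from RefSeq (GRCh38.p14) and positions from GENCODE 29; an exon start counted where any transcript has it, first exons left out. The intervals of single ratios and the rule of size were tested on simulated independent counts, where the change in composition was known. Other steps were not tested in this way. Members, lists and tests were chosen with earlier results of these data known; the splice acceptor and arm comparisons were added after the values were seen. Named members were all with 20 reads, the 10 most abundant, those with an interval excluding 1, those called by the authors, those with 0 against at least 5 reads, both arms of a hairpin and up to 4 per list; others were named after their values were seen.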

Additional observations from a re-analysis of the deposited data

How the results depend on the processing

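With 1 library per group no library could be left out. No paired analysis was possible because each group holds 1 library and the labels give no replicate numbers. The median log2 ratio of the members with 20 reads, 0.33 with total reads, was 0.53 with TMM factors, 0.61 with DESeq2 size factors, 0.46 with totals without the 5 most abundant miRNAs and 0.48 with a minimum of 50 reads, which leaves 1 member. With no minimum it was −0.0077 over all 56 members, 28 of which have 0 reads in a library. The ratio of the members' summed reads rose from 1.03 to 1.25 with DESeq2 size factors, where its interval (1.05 to 1.48) no longer included 1. Those factors raise every ratio, and the median log2 ratio of all miRNAs with 20 reads rose by 0.28, to 0.12. The shift thus does not show where the members stand beside other miRNAs. Relative to all reads they stay at 1.03 under any scaling. Members at least 2-fold higher, 0 with a minimum of 20 reads, numbered 2 of 9 with a minimum of 10, beside 18 of all 230 miRNAs; with no minimum 21 of 56 were higher and 20 lower, beside 79 and 80 of all 407. An adjusted p under 0.05 in the authors' deposited table left 0 of 1 member called. For the 22 members named by rule, all 88 log2 ratios under other scalings or a prior count of 5 stayed within the member's interval. Those intervals are wide or open, so this could hardly fail and does not show stability. A prior count of 5 moved miR-3605-3p from 3.57 to 1.06 and miR-2116-3p from −2.73 to −0.64. Only 1 member, miR-3613-5p, changed sign. The counts of intervals above and below 1 stayed at 1 and 0 under every alternative run. Every other scaling raised all ratios, so through these the interval of miR-1307-3p could not be lost and none below 1 could arise.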
